A study of Mus musculus with 12 samples.

Results

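The insulin-like growth factor (IGF) axis was followed in mouse mammary tumours through 9 genes: the ligands Igf1 and Igf2, the receptor Igf1r, and the binding proteins Igfbp2, Igfbp3, Igfbp4, Igfbp5, Igfbp6 and Igfbp7. A probe was taken for a gene when its name on the array, or the current RefSeq symbol of its accession, was one of these 9. That gave 15 probes, and the genes make up 9 of the 28693 genes tested. As background, IGF1 and IGF2 are secreted growth factors that signal mainly through the tyrosine kinase IGF1R to the PI3-kinase and MAP-kinase routes. The binding proteins hold the ligands outside the cell and can restrain or prolong their action, and proteases release the ligands again. In the mammary gland IGF1 from the stroma supports ductal growth, and IGFBP5 is known for its rise in the involuting gland.

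The tumours came from female mice carrying an activated neu (rat Erbb2) transgene under the MMTV promoter, which is active mainly in mammary epithelium, and the mice had borne tumours for 6 weeks. As background, the receptor of the NYPD strain lacks the tyrosine autophosphorylation sites in its tail. The receptors of the YB, YC, YD and YE strains each have 1 of these sites added back, among which the YB site binds the adaptor Grb2 and the YD site binds Shc. NDL25 is the parental strain with the activated receptor. Each of the 6 strains gave 2 pools of RNA from 5 tumours each, and a pair of dye-swapped arrays set each pool against a commercial mixture, Universal Mouse Reference RNA. All values below are log2 ratios of tumour over this mixture unless they are called differences, so 0 means a signal equal to that of the mixture, not absence. Whole tumours hold several cell types, and fewer cells of a type cannot be told apart from less RNA per cell. The p-values measure the spread between pools, of which each strain has 2.

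Median tumour signals on the 24 arrays were 365 to 764 intensity units over local backgrounds of 39 to 64, and 97.3% to 98.9% of spots were well above background. The labels do not say which dye the tumour RNA carried, so the direction was read from the data. Each array was turned so that the median of the luminal epithelial and milk marker probes lay on the tumour side. Csn2 and Lalba, genes of milk proteins among these markers, lay on the tumour side on all 24 arrays. Afp, a fetal liver gene, lay on the mixture side on all 24. It is 1 of 10 markers of tissues in the mixture, which averaged -0.22 to -0.09 in the 12 pools. The median of their probes, however, leaned slightly to the tumour side on most arrays. The mean ratio of the 10 luminal epithelial markers was 2.49 to 3.11 and that of the 8 milk markers 2.06 to 3.85 in the 12 pools. Since these markers set the direction, their positive ratios are not a separate check of it. The 6 salivary markers averaged 4.26 and 4.62 in the YB pools, against -0.00 to 0.24 in the other 10 pools, so YB tumours stand apart in this respect. Erbb2 on its brightest probe had ratios of 1.85 in YB pool 1 and 1.64 in NDL25 pool 1, against 3.42 to 4.19 in the other 10 pools. Another Erbb2 probe was at 0.81 and 0.97 in these pools, against 0.45 to 1.03 in the other 10. A further one was at 0.24 and -0.01, against 0.05 to 0.37. YB pool 1 was therefore low on the brightest probe alone, and NDL25 pool 1 was not low on every probe. Both NYPD pools were feature-extracted on a day of their own, so this day and the NYPD strain cannot be told apart. All YD and YE arrays were extracted on day 1 and all NDL25 and YB arrays on day 2. Differences of YD or YE from NDL25 therefore also cross these days, which only the YC arrays share.

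The 9 genes were measured well above background on all 24 arrays, and their ratios to the mixture spanned from far below to far above 0. Igfbp3 had the highest mean over the 12 pools among probes without saturation, 2.16 or 4.45-fold the mixture, followed by Igfbp7 at 0.79 or 1.73-fold and Igfbp5 at 0.70 or 1.62-fold. These 3 binding proteins were above the mixture in 12 of 12 pools. The brightest Igfbp5 probe, which was saturated in the tumour channel, averaged 3.13, above Igfbp3. The level of Igfbp5 and its place in this order therefore depend on the probe. Igf1 averaged -0.55, Igf1r -0.60, Igfbp2 -0.74 and Igfbp4 -1.14. Igf2 and Igfbp6 were the furthest below the mixture, at -2.32 and -2.17, which are 0.201-fold and 0.223-fold. On these probes Igf2, Igf1r, Igfbp4 and Igfbp6 were below it in all 12 pools, while Igf1 was above it in YB pool 1 alone and Igfbp2 in NYPD pool 2 alone. A position in this order depends on what the mixture contains and is not a ranking of transcript amounts in the tumours.

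**Figure D1:**
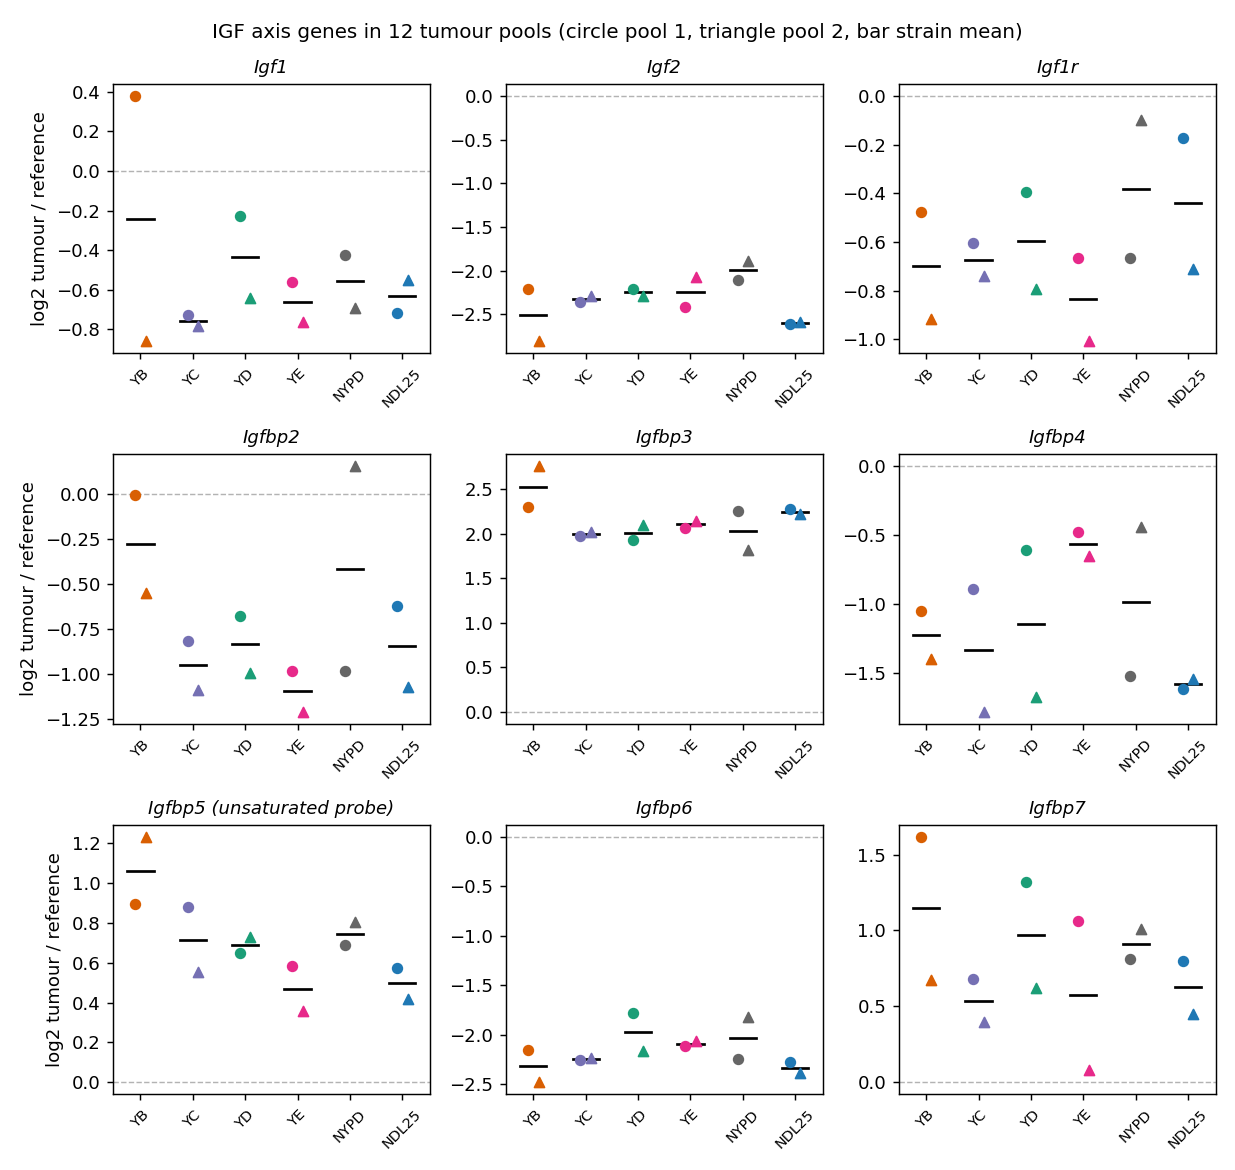
Log2 ratio of tumour over the reference mixture for the 9 IGF axis genes, with 1 point per pool (circle pool 1, triangle pool 2), a bar at each strain mean and a dashed line at 0; the vertical scale differs between panels. Igfbp3, Igfbp5 and Igfbp7 lie above 0 in 12 of 12 pools, Igf2 and Igfbp6 lie below -1.78 in every pool, and in several panels the 2 pools of 1 strain are as far apart as the strain means.

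Differences between the receptor strains were then tested for all genes with limma and Benjamini-Hochberg adjustment, with an adjusted p of 0.05 as the threshold. None of the 9 genes passed the F test over the 6 strains, which called 3.18% of all genes tested, and 1 of them, Igfbp5, had an unadjusted p under 0.05. None passed in any contrast against NDL25, where the shares of all genes called were 3.92% for YB, 0.00697% for YC, 0.00697% for YD, 0% for YE and 1.04% for NYPD. None passed against NYPD either, where the shares were 5.1% for YB, 0.0174% for YC, 0.0105% for YD and 1.88% for YE. Read against these shares, the absence of a call among 9 genes does not set the IGF genes apart from other genes. Precision limited these tests: the standard error of a strain difference was 0.15 to 0.46 for the IGF genes, with Igfbp5 on its unsaturated probe, against a median of 0.109 over all genes tested. A p above the threshold does not show that strains were alike, and intervals are given for the differences below. The median difference of the 9 genes, with Igfbp5 on its unsaturated probe, was 0.36 for YB over NDL25 and 0.29 for NYPD over NDL25, beside -0.01 over all genes in both. It was 0.20 for YD, -0.03 for YE and -0.09 for YC over NDL25, and 0.14 for YB, -0.06 for YD, -0.25 for YE and -0.29 for YC over NYPD, beside -0.01 to 0.01 over all genes.

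Igf1, the ligand made in many tissues under growth hormone and here closer to the mixture than Igf2, had the widest gap of the 9 genes between the pools of 1 strain. Its ratios were 0.38 and -0.86 in the YB pools, -0.73 and -0.78 in YC, -0.23 and -0.64 in YD, -0.56 and -0.76 in YE, -0.42 and -0.69 in NYPD, and -0.72 and -0.55 in NDL25. YB holds both the highest and the lowest of the 12 pools, and the gap of 1.24 between its pools is wider than the range of 0.52 over the strain means. In order of mean the strains were YB, YD, NYPD, NDL25, YE and YC, and each overlapped its neighbour. The mean was -0.24 ± 0.87 in YB and -0.63 ± 0.12 in NDL25 (SD, n = 2), a difference of 0.39 with a 95% interval from -0.41 to 1.20 (limma, adjusted p = 0.654). This value rests on which YB pool is kept: without YB pool 2 the difference was 1.01 (limma, adjusted p = 0.0427), where the lone YB pool is assumed to vary like the other strains. The 3 Igf1 probes ran together, with r between 0.75 and 0.98 over the 12 pools.

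Igf2, the fetal and imprinted ligand, was low against the mixture in every strain. Its ratios were -2.21 and -2.81 in the YB pools, -2.35 and -2.28 in YC, -2.21 and -2.29 in YD, -2.41 and -2.07 in YE, -2.10 and -1.89 in NYPD, and -2.61 and -2.59 in NDL25. The NYPD pools lie above both NDL25 pools, and the NDL25 pools differ from each other by less than those of any other strain. The order of means ran NYPD, YE, YD, YC, YB and NDL25, again with each neighbouring pair overlapping. NYPD averaged -2.0 ± 0.15 and NDL25 -2.60 ± 0.01 (SD, n = 2), a difference of 0.60 ± 0.19 (SE) with a 95% interval from 0.16 to 1.04. Its unadjusted p was 0.014 and its adjusted p 0.182 (limma), so it did not pass, and the feature extraction day of the NYPD pools cannot be told apart from their strain. YB was lower than NYPD by a difference of -0.51 with a 95% interval from -0.95 to -0.07 (limma, adjusted p = 0.186). Without YB pool 1 that difference was -0.81 (limma, adjusted p = 0.0259), where the lone YB pool is again assumed to vary like the other strains. The other Igf2 probe followed the main one at r = 0.92 over the 12 pools, with ratios from -3.50 to -2.20.

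Igf1r, the receptor through which both ligands signal, varied as much within strains as between them. Its ratios were -0.48 and -0.92 in the YB pools, -0.60 and -0.74 in YC, -0.40 and -0.79 in YD, -0.67 and -1.01 in YE, -0.67 and -0.10 in NYPD, and -0.17 and -0.71 in NDL25. The highest pool is an NYPD pool and the next an NDL25 pool, but the other pool of each lies among the other strains. The strain means, in the order NYPD, NDL25, YD, YC, YB and YE, spanned 0.45 while the NYPD pools alone were 0.57 apart. Igf1r averaged -0.84 ± 0.24 in YE and -0.38 ± 0.40 in NYPD (SD, n = 2), and the difference of -0.45 had a 95% interval from -1.08 to 0.17 (limma, adjusted p = 0.396). A pair of further probes carries the names A330103N21Rik and D930020L01, which RefSeq lists as synonyms of Igf1r, and they lie outside the rule used here. The A330103N21Rik probe ran from -2.88 to -1.39. The D930020L01 probe was at 0.34 and 0.62 in the YB pools, against 0.01 to 0.11 in the other 10. These probes therefore give a different picture from the Igf1r probe, and which transcripts they detect was not tested.

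Among the binding proteins, Igfbp3, the main carrier of IGFs in the circulation, was high in every tumour pool. Its ratios were 2.3 and 2.76 in the YB pools, 1.98 and 2.02 in YC, 1.93 and 2.09 in YD, 2.07 and 2.15 in YE, 2.25 and 1.81 in NYPD, and 2.28 and 2.22 in NDL25. Both YB pools lie above all other pools and both NDL25 pools above those of YE, YD and YC, while the NYPD pools lie at the level of NDL25 and below all others. YB averaged 2.53 ± 0.32 and NYPD 2.03 ± 0.31 (SD, n = 2), a difference of 0.50 ± 0.17 (SE) with a 95% interval from 0.10 to 0.90 (limma, adjusted p = 0.161). Against NDL25 the YB difference was 0.28, with an interval from -0.12 to 0.68 (limma, adjusted p = 0.478). The other Igfbp3 probe gave ratios of only -0.20 to 0.78 and did not follow the first, with r = -0.04 over the 12 pools, so the high ratio rests on 1 probe. That other probe was much dimmer, with a median tumour signal of 208 intensity units against 4629. The salivary markers, which set YB apart, correlated with Igfbp3 at r = 0.74 over 12 pools, but at -0.37 without the 2 YB pools, and the rank correlation over 12 pools was 0.09. The 8 endothelial markers followed Igfbp3 at r = 0.67, and at 0.66 without YC pool 1 and YB pool 1. They averaged 1.53 and 1.5 in YB, 1.41 and 1.23 in NYPD, and 1.5 and 1.27 in NDL25. Of these 8 markers, 7 had a positive YB minus NYPD difference and 1 passed, while 4.02% of all genes rose in that contrast. The part of salivary or endothelial cells in the Igfbp3 values was not tested.

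Igfbp5, which binds IGFs in extracellular matrix and rises in mammary involution, was above the mixture in every pool. Its brightest probe was saturated in the tumour channel on 23 of 24 arrays, so the ratios of 2.47 to 4.32 on that probe are lower bounds and give no order of strains. The unsaturated Igfbp5 probe had ratios of 0.89 and 1.23 in the YB pools, 0.88 and 0.55 in YC, 0.65 and 0.73 in YD, 0.58 and 0.36 in YE, 0.69 and 0.80 in NYPD, and 0.57 and 0.42 in NDL25. Both YB pools were above all other pools, and those of YD, YC and NYPD mostly above those of NDL25 and YE. YB averaged 1.06 ± 0.24 and NDL25 0.50 ± 0.11 (SD, n = 2), a difference of 0.57 ± 0.15 (SE) with a 95% interval from 0.22 to 0.91. Its unadjusted p was 0.0054 and its adjusted p 0.0888 (limma, with this probe standing for the gene), the smallest adjusted p of the 9 genes in any contrast, and above the threshold. Leaving out each pool in turn moved the difference between 0.40 and 0.74, with adjusted p-values of 0.0548 to 0.32. The YB minus NYPD difference was 0.32, with an interval from -0.03 to 0.66 (limma, adjusted p = 0.289). Over the 12 pools the ratios of the 2 Igfbp5 probes had r = -0.20. The salivary markers correlated with the unsaturated probe at r = 0.73 and the macrophage markers at 0.67, with YB the highest strain mean for both, and their part was not tested.

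Igfbp7, a secreted protein with low affinity for IGFs that is abundant around vessels and in stroma, was above the mixture in all pools but spread widely. Its ratios were 1.62 and 0.67 in the YB pools, 0.68 and 0.40 in YC, 1.32 and 0.62 in YD, 1.06 and 0.08 in YE, 0.81 and 1.01 in NYPD, and 0.80 and 0.45 in NDL25. The pools of YB, YD and YE lay far apart, with the widest gap of 0.98 in YE against a range of 0.61 over the strain means. YB averaged 1.15 ± 0.67 and NDL25 0.62 ± 0.25 (SD, n = 2), and the difference of 0.52 had a 95% interval from -0.43 to 1.47 (limma, adjusted p = 0.603).

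Igfbp2, which modulates IGF action and can bind integrins, was below the mixture in most pools. Its ratios were -0.00 and -0.55 in the YB pools, -0.81 and -1.09 in YC, -0.68 and -0.99 in YD, -0.98 and -1.21 in YE, -0.98 and 0.16 in NYPD, and -0.62 and -1.07 in NDL25. The YB pools were both above those of NDL25, and the NYPD pools were 1.14 apart, one the highest of all 12 and the other in the lower part of the range. YB averaged -0.28 ± 0.39 and NDL25 -0.84 ± 0.32 (SD, n = 2), a difference of 0.57 with a 95% interval from -0.27 to 1.41 (limma, adjusted p = 0.503).

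Igfbp4, a binding protein that restrains IGFs until the protease Pappa cleaves it, had the widest range of strain means of the 9 genes. Its ratios were -1.05 and -1.40 in the YB pools, -0.89 and -1.78 in YC, -0.61 and -1.68 in YD, -0.48 and -0.65 in YE, -1.52 and -0.44 in NYPD, and -1.62 and -1.55 in NDL25. YE was the only strain with both pools high, and in YC, YD and NYPD the pools lay far apart. YE averaged -0.56 ± 0.12 and NDL25 -1.58 ± 0.05 (SD, n = 2), a difference of 1.02 ± 0.46 (SE) with a 95% interval from -0.05 to 2.09 (limma, adjusted p = 0.683). The YE and NDL25 pools also differ in feature extraction day. With that day as a block, which rests on the YC pools, the difference was 1.91 ± 0.74 (SE). The other Igfbp4 probe followed at r = 0.87 but at higher ratios, from -0.80 to 0.46, and was above the mixture in 4 pools: 0.28 in YC pool 1, 0.40 in YD pool 1, 0.29 in YE pool 1 and 0.46 in NYPD pool 2. It was dimmer, with a median tumour signal of 196 intensity units against 1621. Igfbp6, which prefers IGF2 to IGF1, was low and even, at -2.15 and -2.48 in the YB pools, -2.26 and -2.23 in YC, -1.79 and -2.16 in YD, -2.12 and -2.07 in YE, -2.25 and -1.82 in NYPD, and -2.28 and -2.39 in NDL25. YD, with a mean of -1.97 ± 0.27, was highest and NDL25, with -2.34 ± 0.08 (SD, n = 2), was lowest, and the difference of 0.36 had a 95% interval from -0.05 to 0.77 (limma, adjusted p = 0.547). These strains also differ in feature extraction day, and with the same block the difference was 0.33 ± 0.33 (SE).

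**Figure D2:**
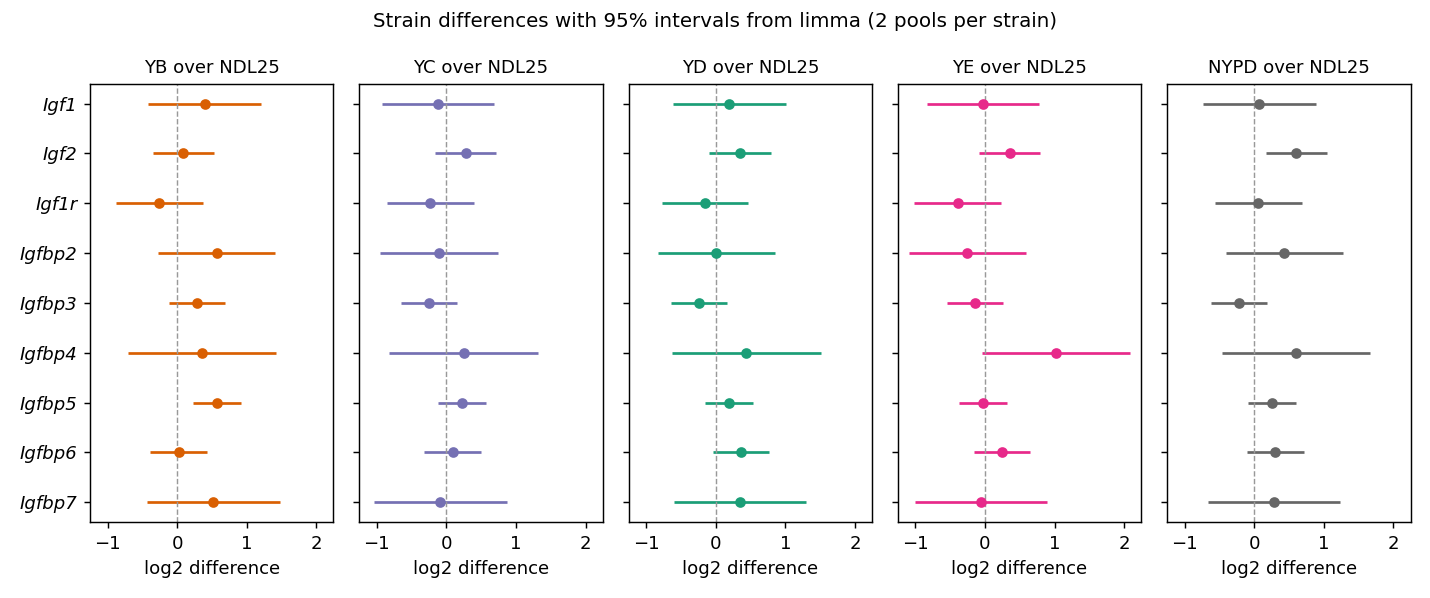
Log2 difference of YB, YC, YD, YE and NYPD tumours minus NDL25 tumours for the 9 genes, with points at the limma estimate (2 pools per strain), bars for the 95% interval and a dashed line at no difference; Igfbp5 is on its unsaturated probe. The intervals for Igfbp5 in YB (0.22 to 0.91) and Igf2 in NYPD (0.16 to 1.04) lie above 0 before adjustment, the widest are those of Igfbp4, and no difference passed after adjustment over all genes.

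For several genes the pools of 2 strains did not overlap, which was also common among genes at large. Both pools of YB were above both of NDL25 for 4 of the 9 genes (Igfbp2, Igfbp3, Igfbp4 and Igfbp5) and below for none, while 47.2% of all genes did not overlap in that comparison. NYPD was above NDL25 for 5 (Igf2, Igfbp4, Igfbp5, Igfbp6 and Igfbp7), and below it for none, against 47% of all genes in either direction. In YC, Igf2 and Igfbp6 were above and Igf1 and Igfbp3 below NDL25 (47.3% of all genes without overlap), in YD Igf2, Igfbp5 and Igfbp6 were above and Igfbp3 below (46.1%), and in YE Igf2, Igfbp4 and Igfbp6 were above and Igfbp3 below (40.8%). Against NYPD, YB was above for Igfbp3 and Igfbp5 and below for Igf2 (45.6% of all genes), YC was below for Igf1, Igf2 and Igfbp7 (40.9%), YD was below for Igf2 (41.7%), and YE was below for Igfbp2 and Igfbp5 (49.9%). All of these comparisons share the NDL25 or the NYPD pools.

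Some of the 9 genes moved together over the 12 pools, which share the mixture and the array platform. Igf1 and Igfbp7 had the highest r of all pairs, 0.78, which was 0.35 without YB pool 1 and YD pool 1, so it rests largely on those pools. Igf2 and Igfbp6 had r = 0.77, and 0.52 without YB pool 2 and NYPD pool 2. Igfbp3 and Igfbp6 ran against each other at -0.75, and at -0.52 without the same pools.

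The upstream sequences of Igf1 and Igfbp7, the pair with the highest r, are given as the 250 bases before the start of each gene (RefSeq, GRCm38.p6), with capitals at each match to the GC box GGGCGG or its reverse complement CCGCCC. The Igf1 window is chr10:87860861-87861110 on the plus strand and the Igfbp7 window is chr5:77408046-77408295 on the minus strand.
Igf1: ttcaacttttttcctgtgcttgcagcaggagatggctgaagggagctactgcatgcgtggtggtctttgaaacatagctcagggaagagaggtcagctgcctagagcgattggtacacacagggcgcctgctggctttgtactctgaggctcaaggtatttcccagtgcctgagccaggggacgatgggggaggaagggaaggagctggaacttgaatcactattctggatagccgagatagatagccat
Igfbp7: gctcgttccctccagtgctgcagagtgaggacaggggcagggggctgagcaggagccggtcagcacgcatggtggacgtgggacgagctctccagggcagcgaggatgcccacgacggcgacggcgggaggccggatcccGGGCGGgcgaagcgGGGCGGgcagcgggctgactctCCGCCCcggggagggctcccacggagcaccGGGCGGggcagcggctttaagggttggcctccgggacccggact
The Igfbp7 window held 4 GC boxes and the Igf1 window 0, and neither held TATAAA or the STAT-type motif TTCNNNGAA on either strand. Of 32851 mouse promoters of the same length, 32.7% held a GC box, 12.4% TATAAA and 7.02% TTCNNNGAA. A match describes letters only, and the pair shares none of these motifs.

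Markers of other cell types moved with several of these genes, beside which they are given here. The 10 fibroblast markers, all measured, averaged -0.14 and -0.97 in the YB pools, -1.57 and -1.25 in YC, -0.73 and -1.17 in YD, -1.38 and -1.87 in YE, -0.27 and -0.70 in NYPD, and -1.22 and -1.34 in NDL25. YB pool 1 and the NYPD pools were therefore the richest in fibroblast transcripts, and YE pool 2, the lowest Igfbp7 pool, the poorest. Igfbp7 followed the fibroblast mean at r = 0.75 over the 12 pools and 0.73 without YB pool 1 and NYPD pool 1. Igf1 followed it at 0.70 and at 0.37 without those pools. Without YB pool 1 alone the values were 0.61 for Igfbp7 and 0.51 for Igf1. The 6 macrophage markers averaged 1.60 and 1.01 in YB and 0.50 and 0.43 in NDL25, and correlated with Igf1 at r = 0.65, but at 0.03 without YB pool 1 and YE pool 2. Igfbp2 followed the 8 myoepithelial markers at r = 0.78, and at 0.51 without NYPD pool 2 and YE pool 2. These pairings are not particular to 1 cell type. Igfbp2 was also at 0.71 with the macrophage, 0.65 with the milk and 0.62 with the fibroblast markers. Igfbp7 was at 0.69 with the macrophage and 0.57 with the myoepithelial markers. The luminal epithelial markers gave the lowest values, 0.20 for Igfbp2 and -0.12 for Igfbp7. The part of these cell types in the IGF values was not tested.

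**Figure D3:**
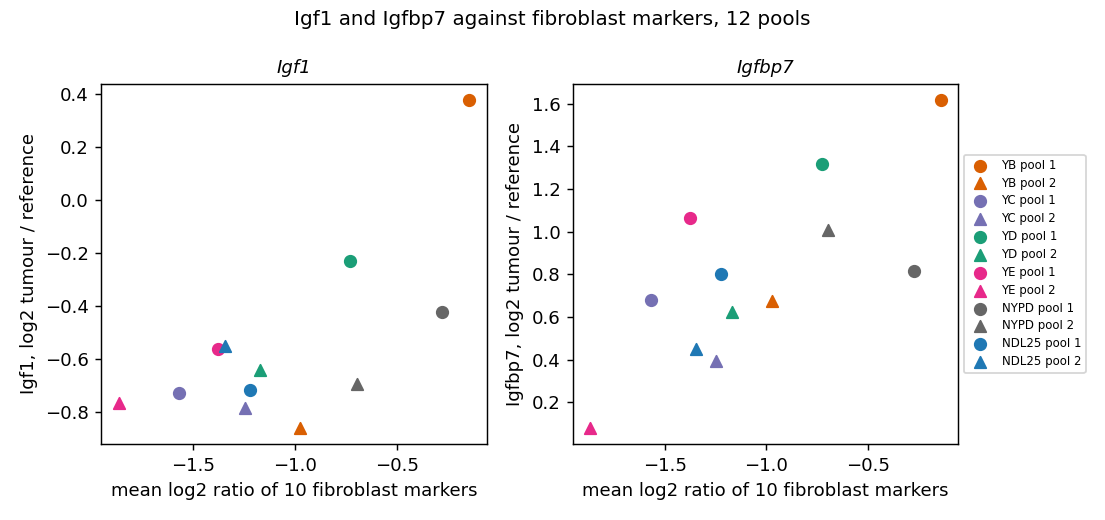
Log2 ratio of Igf1 (left) and Igfbp7 (right) in the 12 pools against the mean log2 ratio of 10 fibroblast markers, with colour for strain and shape for pool. Igfbp7 is higher where the marker mean is higher, with r = 0.75, and 0.61 without YB pool 1. For Igf1 the r of 0.70 was 0.51 without YB pool 1, which lies at the upper right.

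For each gene, the 3 genes with the most similar ratios over the 12 pools were listed. Those for Igf1 were Adgra2, Mmp23 and Fkbp7 (r from 0.92 to 0.93), those for Igf2 were Bnc1, Parvg and Ripor3 (0.92 to 0.94), and those for Igf1r were Kdm2a, Tnfsf12 and Spryd3 (0.92 to 0.94). Igfbp2 was most like Id1, which encodes an inhibitor of helix-loop-helix factors, at r = 0.96, the highest of all, and then like Pcnx3 and Syt8. Igfbp3 was most like Tmem170, Usp50 and Tmem215, Igfbp4 like Arl2, Ssbp4 and Smad6, and the unsaturated Igfbp5 probe like Ifnar2, Mgst1 and Chst2. Igfbp6 was most like Sdhc, Ltbp4 and Clec3b (0.86 to 0.89), and Igfbp7 like Islr, Zfand3 and Tagln (0.90 to 0.91), of which Tagln is a marker of contractile cells. With 28693 genes and 12 pools, high correlations of this kind are the top of a long list and are given as a description.

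The wider IGF and insulin pathway was read from a list of 47 genes, of which 45 were tested. The F test passed for 2 of them, Grb10 and Adamts1, beside 3.18% of all genes. In YB, 1 rose and 1 fell against NDL25, while 3.12% of all genes rose and 0.795% fell. In NYPD, 1 rose and 0 fell against NDL25, while 0.453% of all genes rose and 0.586% fell. In YC, YD and YE none passed against NDL25, where 12, 8 and 7 of the 45 had an unadjusted p under 0.05, or 26.7%, 17.8% and 15.6% of the list beside 11.3%, 10.4% and 7.58% of all genes. Against NYPD, 0 rose and 2 fell in YB, while 4.02% of all genes rose and 1.08% fell. In YE, 0 rose and 1 fell against NYPD, while 0.843% of all genes rose and 1.04% fell. In YC and YD none passed against NYPD, where 9 and 6 had an unadjusted p under 0.05, or 20.0% and 13.3% of the list beside 10.3% and 10.8% of all genes. After adjustment, 0.0105% of all genes rose in YC and 0.00349% in YD and 0.00697% fell in each. In the other contrasts against NDL25, 9 of the 45 in YB and 17 in NYPD had an unadjusted p under 0.05. These are 20.0% and 37.8% of the list, beside 17.3% and 15.7% of all genes. Against NYPD there were 11 such genes in YB and 15 in YE, or 24.4% and 33.3% of the list, beside 20.0% and 19.4% of all genes. The median difference of the 45 was 0.06 for YB and 0.11 for NYPD over NDL25, beside -0.01 over all genes in both, and whether the list differs from other genes was not tested.

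Grb10, which encodes an adaptor that binds and restrains the insulin and IGF1 receptors, was low in YB tumours. Its ratios were -1.64 and -1.30 in the YB pools, 0.25 and 0.24 in YC, -0.40 and -0.10 in YD, 0.16 and 0.16 in YE, 0.02 and -0.24 in NYPD, and -0.61 and -0.26 in NDL25. Both YB pools are far below all others. Grb10 fell in YB by a log2 difference of -1.03 ± 0.17 (SE) against NDL25 (limma, adjusted p = 0.0189) and of -1.35 ± 0.17 against NYPD (limma, adjusted p = 0.0079). The call against NDL25 was lost without NDL25 pool 1 (-1.21, adjusted p = 0.057), without NDL25 pool 2 (-0.86, adjusted p = 0.108) and without YB pool 1 (-0.86, adjusted p = 0.0545), and no single pool ended the call against NYPD. Another Grb10 probe stayed between -0.02 and 0.18 in every pool and did not set YB apart. A further one was at -1.50 and -1.14 in YB, but scattered from -1.20 to 0.98 in the other strains. With the mean over the probes of the gene both calls were lost. The differences were then -0.58 against NDL25 (limma, adjusted p = 0.249) and -0.60 against NYPD (limma, adjusted p = 0.201).

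Adamts1, a secreted metalloprotease of the extracellular matrix, was below the mixture everywhere and differed between strains. Its ratios were -0.72 and -0.93 in the YB pools, -1.37 and -1.17 in YC, -1.0 and -1.0 in YD, -1.52 and -1.53 in YE, -1.05 and -1.10 in NYPD, and -1.65 and -1.60 in NDL25. NDL25 and YE form the low end and YB the high end. Adamts1 rose in YB over NDL25 by 0.80 ± 0.09 (SE), or 1.74-fold (limma, adjusted p = 0.0052), and in NYPD over NDL25 by 0.54 ± 0.09 (limma, adjusted p = 0.0403). Without NDL25 pool 1 the YB difference was 0.77 (limma, adjusted p = 0.0524). The NYPD call was lost when any pool of NDL25, YD, YE or NYPD was left out, with differences of 0.52 to 0.57 and adjusted p-values of 0.0692 to 0.206. In the deposited value table the YB difference was 0.59 (limma, adjusted p = 0.261) and the NYPD difference 0.24 (limma, adjusted p = 0.70). The F test did not pass there either (limma, adjusted p = 0.428). With the feature extraction day as a block the NYPD difference was 0.34 (limma, adjusted p = 0.769). That block rests on the YC pools and cannot adjust for the day of the NYPD pools, which no other strain shares. A second probe was at -0.31 and 0.21 in YB, -0.39 and -0.10 in NYPD, and -0.59 and -0.42 in NDL25.

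Shc1, which encodes the adaptor Shc that couples receptor tyrosine kinases to Ras, was lower in YB than in NYPD. Its ratios were -0.94 and -0.43 in YB and 0.06 and 0.29 in NYPD, a difference of -0.86 ± 0.18 (SE; limma, adjusted p = 0.0365). NYPD is the high strain here, with the other strains between -0.78 and -0.23. Stc2, an inhibitor of the protease that cleaves IGFBP4, was lower in YE than in NYPD, at -1.28 and -1.78 in YE and 0.80 and -0.23 in NYPD. That difference was -1.82 ± 0.35 (SE; limma, adjusted p = 0.0477), and YE lay below every other pool. Both calls were marginal: that of Shc1 was lost without any one pool other than YB pool 2, with differences of -0.97 to -0.61 and adjusted p-values of 0.058 to 0.143. That of Stc2 held when NYPD pool 2 or either YB pool was left out and was lost without any other single pool, with differences of -2.07 to -1.31 and adjusted p-values of 0.0732 to 0.252.

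**Figure D4:**
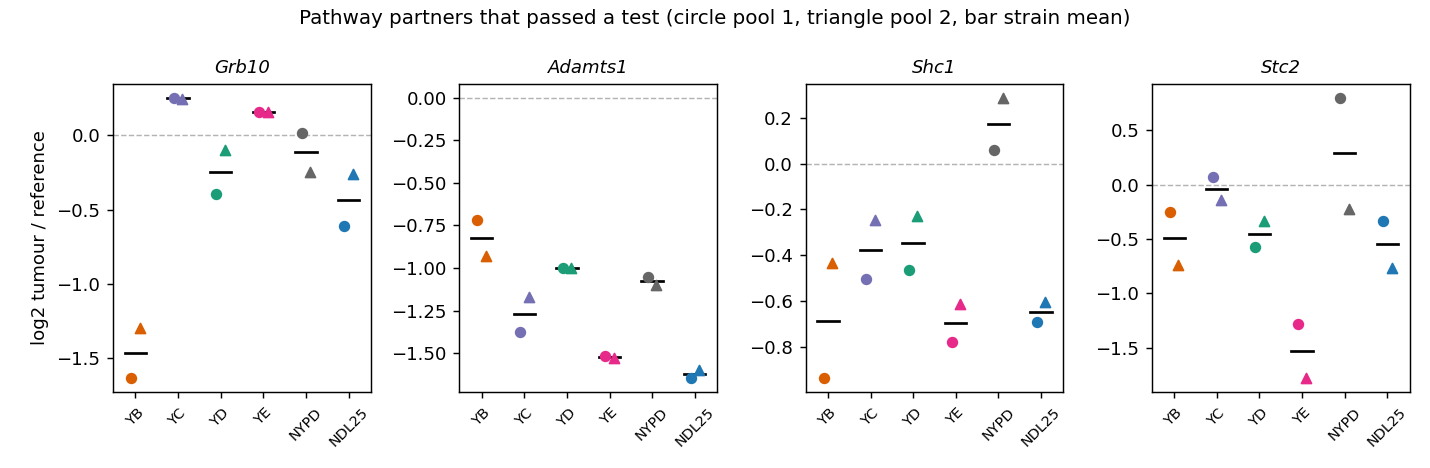
Log2 ratio of tumour over the reference mixture for Grb10, Adamts1, Shc1 and Stc2, with 1 point per pool (circle pool 1, triangle pool 2), a bar at each strain mean and a dashed line at 0; the vertical scale differs between panels. The YB pools of Grb10 lie below -1.29, apart from all others, NYPD is highest for Shc1, and YE is lowest for Stc2.

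Further components were chosen for their role after their values had been seen. Igf2r, the receptor that takes up and clears IGF2, was above the mixture in 12 of 12 pools, from 0.86 to 1.62, and Irs1, the docking protein of the insulin and IGF1 receptors, from 1.59 to 2.88. Insr, the insulin receptor, ran from 0.09 to 1.04 on its brightest probe but from -0.49 to -0.16 on another, so its side of the mixture depends on the probe. The other Irs1 probe was also above the mixture, from 0.34 to 1.06. Igf2bp2 and Igf2bp3, whose products bind Igf2 mRNA, lay below the mixture, from -3.57 to -2.04 and from -1.44 to -0.87. Igfbp1, the binding protein of liver, stayed close to 0, from -0.08 to 0.20. Ghr, the growth hormone receptor, was at -0.47 and -0.21 in the YB pools and -1.36 and -1.65 in the NDL25 pools, a difference of 1.16 with a 95% interval from 0.57 to 1.75 that did not pass (limma, adjusted p = 0.0505). Irs1 was at 2.88 and 2.43 in NYPD and 1.73 and 2.23 in NDL25, a difference of 0.68 with an interval from 0.10 to 1.26 (limma, adjusted p = 0.242).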

How the data were processed

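Tumour and reference intensity values were deposited as scanner output (Feature Extraction), per the file headers, together with a table of log2 ratios per pool from the authors, whose log base is assumed. RMA, limma and R 2.3.0 appear, with no role, among the tools of the submitters' processing notes. No genome build is given in the sources used here.

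Here, normexp background correction (offset 50) and loess within arrays were applied in limma 3.58.1 under R 4.3.3, arrays were turned to tumour over mixture, and the 2 dye-swapped arrays of a pool were averaged. Dye-swapped pairs correlated at -0.89 or below before turning, and the deposited ratios correlated at 0.98 or above with the turned ones. Of 41174 probes, 2 were left out for flags, 325 for dim signal (well above background on fewer than 4 arrays) and 12154 because a brighter probe named the gene. A limma model with a mean per strain (residual degrees of freedom 6, prior 1.76) was fitted to the 12 pools, with Benjamini-Hochberg adjusted p-values over all 28693 genes. It was tested on simulated data. For Igfbp5 a probe without saturated spots was used after its saturation was seen.

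The members and lists were chosen with earlier results of these data known. The text names all 9 genes, the partners that passed a test, and the 3 genes most like each member. Alternatives changed the background correction, normalization, filter, probes, arrays, blocks and pools.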

Additional observations from a re-analysis of the deposited data

How the results depend on the processing

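The F test was repeated under 25 alternatives and each of the 9 contrasts under 26. The count of IGF genes called stayed 0 in 257 of these 259 results, nearly all of which read Igfbp5 on its saturated probe. Where almost no gene passed at large, 0 was nearly given in advance, as in YC, YD and YE over NDL25 (0.00697%, 0.00697% and 0% of all genes). Repeated with unsaturated probes only, an alternative added after seeing the data, the count of IGF genes stayed 0 in 227 of 229. In both sets, leaving out each pool in turn gave 0 to 1 genes for YB over NDL25 and 0 to 1 for YB over NYPD: Igf1 without YB pool 2 and Igf2 without YB pool 1. NDL25 pool 1 and YB pool 1, low on the brightest Erbb2 probe, were also left out together, which leaves 1 pool in each strain. The YB minus NDL25 difference of Igfbp5 on its unsaturated probe was then 0.81. With the pool number as a replicate block, 0 IGF genes were called in every test; same-numbered pools of different strains correlated at -0.17 to 0.71, above 0.1 in 7 of 15 strain pairs, among them all 6 pairs of YB, YC, YD and YE. Since the other 8 pairs were not, the numbers were not taken to pair the samples. A block for the feature extraction day called 0, but rests on YC alone, the strain with arrays of 2 days. It cannot adjust for the day of the NYPD pools. Within day 2, where YB and NDL25 both lie, 0 passed. Of the partner results, Adamts1 in NYPD over NDL25 lost its call in 17 of 25 alternatives, Adamts1 in YB over NDL25 in 4 of 25, Grb10 in YB over NDL25 in 6 of 25, Grb10 in YB over NYPD in 3 of 25, Shc1 in 15 of 24 and Stc2 in 15 of 25, all with the same direction. In the F test Grb10 lost its call in 3 of 24 and Adamts1 in 8 of 24. The cause of these losses was not tested. Saturation limits Igfbp5, and 2 pools per strain limit every test.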
